A study of Homo sapiens with 6 samples.

Results

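The genes described are the extracellular and membrane metalloproteases of the MMP, ADAM and ADAMTS families, the protease-free ADAMTS-like proteins, the TIMP inhibitors with RECK, and the single peptidase genes MME, CPE, CPA4, TLL1 and PAPPA. They were taken from the deposited table by name: a name starting with MMP, ADAM, ADAMTS or TIMP and a digit, or with ADAMTSL, or equal to one of a short list that also held BMP1, which is not analysed here. This gave 36 of the table's 4439 genes, of which 34 belong to the families and 2, MMP24OS and ADAMTSL4-AS1, lie opposite to a family member and were caught by their names. RNA was sequenced from 3 libraries of HCC827OR and 3 of HCC827. HCC827 is an established human lung adenocarcinoma cell line driven by mutant EGFR, a growth factor receptor. HCC827OR was selected from it with the EGFR inhibitor osimertinib, month by month, through 10 nM, 50 nM, 100 nM, 500 nM, 1 µM and finally 5 µM. HCC827OR is called resistant and HCC827 parental below. It is 1 selected population of 1 line, and the labels do not say whether its cells were still in osimertinib when RNA was taken.

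Matrix metalloproteinases (MMPs) are zinc enzymes that cut collagens, basement membrane and other matrix proteins. ADAMs are mostly membrane-bound and shed the outer parts of receptors, adhesion proteins and growth factor precursors, while the secreted ADAMTS enzymes cut proteoglycans and process procollagen and fibrillin-associated proteins. TIMPs bind the active site of these enzymes and block them. In lung tumours this system is known for remodelling the matrix around invading cells.

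The 36 genes went almost entirely one way. By the authors' own calls, in their deposited table, the resistant line was higher for 32 and lower for 4, where 53.9% of all genes in the table were called higher and 46.1% lower. The table holds only genes that the authors called different between these same libraries, so every test below is a description of picked genes and not independent evidence of a difference. Values are the authors' normalized expression values, whose unit the table does not name, so levels are compared within a gene. Only sums over marker genes or the whole table combine genes, and these sums weigh the highest genes most. Testing used limma on log2(value + 1) for genes that reached a value of 1 in 3 or more of the 6 libraries, with Benjamini-Hochberg adjusted p below 0.05 as the threshold. Of the 36 genes 31 were tested, 28 rose and 3 fell. Over all 3332 tested genes 97.5% passed, 52.5% higher and 45.0% lower. The median log2 fold change was 1.39 over the 31 genes and 0.74 over all tested genes. For 15 of the 31 all 3 parental values were below 1, so these were tested only because the resistant values were high, and they could only rise. They were MMP1, MMP9, MMP13, MMP19, ADAM11, ADAM12, ADAM19, ADAM21, ADAMTS6, ADAMTS15, ADAMTSL1, MME, CPA4, PAPPA and TLL1. ADAMTSL3 was tested only through its parental values and could only fall. Of the other 15, 13 rose and 2 fell. The matching share of all tested genes that could go either way was not computed. With a value of 5 required in 3 or more libraries, 987 of 2020 genes were higher and 1012 lower. Under that filter 14 of 16 members were higher and 2 lower. The counts and medians of families and lists below include genes of fixed direction, and their number is given where it bears on the count. Each such count is to be read beside the 52.5% higher and 45.0% lower of all tested genes. Those shares also include genes of fixed direction. The resistant values of all 36 genes lay outside the parental range, 32 above and 4 below, and 95.2% of the table's genes were separated in this way, 51.8% with the resistant values above. In bulk RNA, fewer cells expressing a gene and less RNA per cell cannot be told apart.

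**Figure D1:**
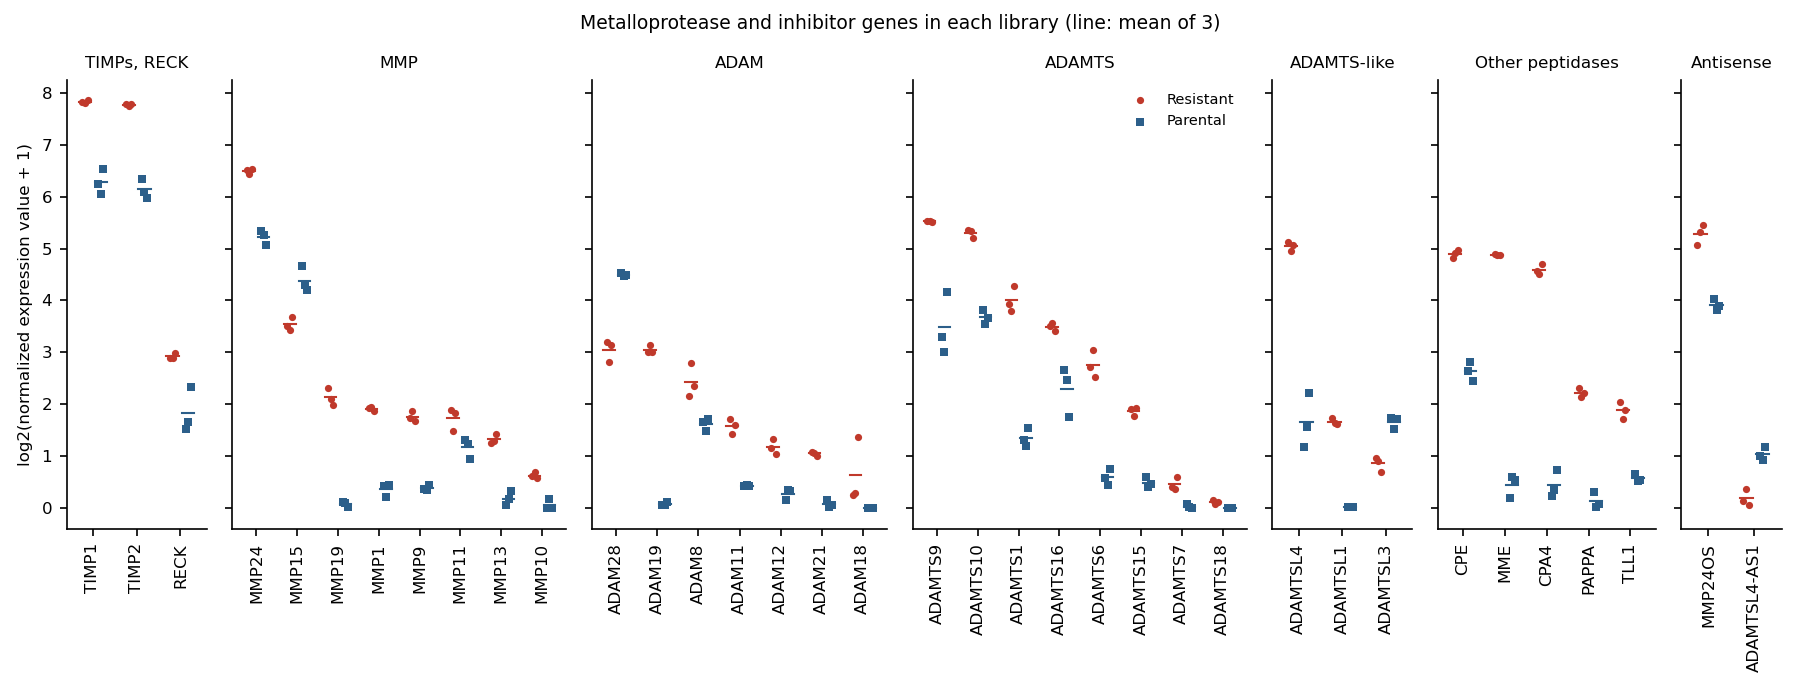
Each point is 1 library, drawn as log2(normalized expression value + 1), for the 36 genes grouped by family, with resistant libraries as red circles on the left and parental libraries as blue squares on the right of each gene, and a short line at the mean of 3. Resistant points lie above parental points in 32 genes and below them in ADAM28, MMP15, ADAMTSL3 and ADAMTSL4-AS1.

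Promoters were read to see whether genes that rose together shared promoter letters. Promoter sequences from RefSeq (GRCh38.p14, 250 bases before to 50 after the start) were found for 24 of the 36 genes, in 28 promoters since some genes have several. Among the 12 genes without an entry, which were not searched, were MMP1, MMP9, MMP13, MMP19 and TIMP2. The AP-1 site TGANTCA, the binding site of FOS and JUN proteins in several MMP promoters, was searched on both strands, as was the TATA box TATAAA. The AP-1 motif was present in 2 of 28 promoters, 7.14%, against 8.07% of the 3322 promoters of tested genes and 7.71% of all 35116 promoters of this length. The TATA motif was present in 6 of 28, 21.4%, against 8.94% of those of tested genes and 11.5% of all. Neither share was tested. The 2 genes with the AP-1 motif were CPA4 and MMP10, and both also held the TATA motif. With the start site counted as 0, MMP10 has the AP-1 motif from -67 and the TATA motif from -31. CPA4 has the AP-1 motif from -48 and from -15, with overlapping TATA matches on the opposite strands from -30 and -28 between them. PAPPA has the TATA motif from -28 and no AP-1 motif. The other matches of the TATA motif begin at 39 in ADAM21, at -78 on the opposite strand in ADAMTS10 and at -203 in TLL1. TIMP1 has neither motif in this window. These 4 are shown, 5′ to 3′ on the gene's strand, because they span the promoters with both motifs, with TATA alone and with neither. Capitals mark the matches, overlapping ones merged. The stretches are chr7:130292911-130293210, plus strand, for CPA4, chr11:102780579-102780878, minus strand, for MMP10, chr9:116153541-116153840, plus strand, for PAPPA, and chrX:47582186-47582485, plus strand, for TIMP1.
CPA4: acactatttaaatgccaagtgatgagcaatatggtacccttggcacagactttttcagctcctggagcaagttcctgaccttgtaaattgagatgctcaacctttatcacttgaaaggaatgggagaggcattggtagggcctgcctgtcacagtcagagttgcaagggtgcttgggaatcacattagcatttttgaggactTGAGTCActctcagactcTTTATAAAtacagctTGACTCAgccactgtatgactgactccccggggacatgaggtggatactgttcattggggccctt
MMP10: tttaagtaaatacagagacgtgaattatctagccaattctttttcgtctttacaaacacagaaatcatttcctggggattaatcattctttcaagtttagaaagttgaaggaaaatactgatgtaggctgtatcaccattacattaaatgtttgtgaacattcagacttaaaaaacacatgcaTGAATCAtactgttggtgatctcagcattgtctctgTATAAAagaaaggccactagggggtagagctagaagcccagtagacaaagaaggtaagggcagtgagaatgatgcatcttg
PAPPA: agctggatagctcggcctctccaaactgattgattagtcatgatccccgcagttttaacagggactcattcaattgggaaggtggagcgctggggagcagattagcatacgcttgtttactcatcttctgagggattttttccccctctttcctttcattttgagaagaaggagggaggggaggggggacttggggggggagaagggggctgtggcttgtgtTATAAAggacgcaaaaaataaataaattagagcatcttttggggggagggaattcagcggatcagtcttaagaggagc
TIMP1: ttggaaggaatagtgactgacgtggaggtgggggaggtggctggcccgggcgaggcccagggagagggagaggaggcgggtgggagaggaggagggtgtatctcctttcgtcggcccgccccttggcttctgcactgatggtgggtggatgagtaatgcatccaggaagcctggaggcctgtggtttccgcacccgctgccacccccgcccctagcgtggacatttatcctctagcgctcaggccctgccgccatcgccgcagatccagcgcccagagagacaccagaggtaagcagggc

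The values summed over the whole table were between 149956 and 152065 in resistant libraries and between 115790 and 145175 in parental libraries. Depth is unknown, since the table holds no counts. The highest parental sum, 145175, was that of parental library 3, and those of parental libraries 1 and 2 were 120825 and 115790. Parental library 3 also stood apart from the other parental libraries in single genes. Its median log2 difference from their mean was -0.01 over the 31 genes and 0.13 over all tested genes. Its effect is given below beside some of the genes it touches, and not beside all. Genes without such a note include PLAU, with 868.8, 740.35 and 432.67 in parental libraries 1, 2 and 3. In the same order TFPI2 had 166.5, 167.25 and 268.5, and FOSL2 had 21.16, 20.01 and 41.24. Markers of lung adenocarcinoma epithelium fell in 10 of 10 tested, 10 of 12 being in the table. They summed to between 2152 and 2195 in resistant and between 6912 and 8422 in parental libraries, and most of these sums is KRT7, KRT18 and KRT19. The lung lineage factor NKX2-1 had 0.12, 0.12 and 0.52 in resistant libraries, against 15.64, 14.18 and 12.19 in parental ones. Of 12 fibroblast markers 7 were in the table, all higher by the authors' call, and 5 of 5 tested rose, 4 of which could only rise. The fibroblast markers in the table summed to between 102 and 107 in resistant and between 1.54 and 2.57 in parental libraries. Most of the resistant sum is FBLN1, and POSTN was listed at 0 in every parental library. Of 10 macrophage markers, which matter because macrophages express MMP9 and ADAM8, 2 were in the table. These were MARCO and CSF1R, which were below 1 in all parental libraries and could only rise, and they summed to between 10.2 and 12.6 in resistant and between 0.72 and 0.94 in parental libraries. Of 8 endothelial markers 3 were in the table, and they went both ways. PECAM1, the only one tested, fell, while VWF had 0.07, 0.1 and 0.06 in resistant and 0.02, 0 and 0.01 in parental libraries and TEK had 0.14, 0.06 and 0.16 in resistant and 0, 0.01 and 0.01 in parental libraries. The endothelial markers, most of whose sum is PECAM1, summed to between 1.11 and 1.62 in resistant and between 4.96 and 10.2 in parental libraries. The defining markers PTPRC, CD68 and CD14 of macrophages and COL1A1 and COL1A2 of fibroblasts are not analysed here. The part that such marker genes have in the results was not tested.

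The inhibitors rose. TIMP1 (ENSG00000102265; chromosome X, 47582313 to 47586789 in GRCh38), a secreted inhibitor that also binds proMMP9, had values of 225.63, 222.58 and 229.98 in resistant libraries, against 74.88, 64.96 and 91.64 in parental libraries. The resistant values were close together, and the lowest of them was more than 100 above the highest parental value. TIMP1 rose 2.93-fold (log2 fold change 1.55, SE 0.145, limma adjusted p = 5.12e-05). TIMP2 (chromosome 17, 78852977 to 78925387), which inhibits MMPs and also forms the complex in which the membrane-type enzyme MMP14 activates proMMP2, had 218.83, 213.19 and 220.04 in resistant libraries, against 80.3, 67.32 and 61.65 in parental ones. The lines did not overlap, as in 95.2% of the table's genes. TIMP2 rose 3.12-fold (log2 fold change 1.63, SE 0.128, limma adjusted p = 2.23e-05). Exons of TIMP2 share 198 of 5633 bases with CEP295NL, which had 0.53, 0.15 and 0.19 in resistant and 0, 0 and 0.06 in parental libraries. RECK, a membrane-anchored protein that restrains several MMPs, had 6.43, 6.39 and 6.91 in resistant libraries, against 1.88, 2.14 and 4.06 in parental ones. Parental library 3 lay nearer to the resistant values than the other parental libraries. RECK rose 2.44-fold (log2 fold change 1.08, SE 0.230, limma adjusted p = 0.00277), and 3.27-fold without parental library 3. TIMP3 and TIMP4 are not analysed here.

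Of the 24 MMP genes listed for the family 8 were in the table, and of 7 tested 6 rose and 1 fell. Over all tested genes 52.5% rose and 45.0% fell. Of the secreted enzymes in the table MMP1, MMP9, MMP13 and MMP19 were among the genes that could only rise, which leaves 3 tested MMPs, MMP11, MMP24 and MMP15. The collagenase MMP1, which opens the triple helix of fibrillar collagen, had 2.79, 2.85 and 2.67 in resistant libraries, against 0.35, 0.16 and 0.36 in parental ones. It rose 9.55-fold (log2 fold change 1.55, SE 0.111, limma adjusted p = 1.51e-05), and the other collagenase, MMP13, had 1.39, 1.46 and 1.69 in resistant and 0.04, 0.13 and 0.25 in parental libraries. The parental values of MMP13 spread more than 6-fold. MMP13 rose 10.8-fold with all libraries (log2 fold change 1.14, SE 0.105, limma adjusted p = 4.80e-05) and 17.8-fold without parental library 3.

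MMP10, stromelysin-2, whose promoter holds both motifs, was too low to be tested: it had 0.53, 0.62 and 0.49 in resistant libraries and 0, 0.13 and 0 in parental ones. In the authors' deposited table its log2 fold change was 3.78 with an adjusted p of 0.0197. Its parental mean rested on parental library 2, without which it was listed at 0 throughout the parental line, and the ratio of means was 12.6 with all libraries and 8.41 without parental library 1 or without parental library 3. MMP10, MMP1 and MMP13 lie in 1 cluster on chromosome 11 in GRCh38, MMP10 at 102770503 to 102780628, MMP1 at 102789920 to 102798160 and MMP13 at 102942995 to 102955734. The gap between MMP10 and MMP1 is 9.29 kb and that between MMP1 and MMP13 is 145 kb. MMP3 and MMP12 lie in the same stretch and are not analysed here.

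MMP9, gelatinase B, which cuts denatured collagen and basement membrane collagen IV, had 2.35, 2.66 and 2.2 in resistant libraries, against 0.29, 0.28 and 0.37 in parental ones. MMP9 rose 7.67-fold (log2 fold change 1.37, SE 0.104, limma adjusted p = 1.98e-05), and every resistant value was more than 5 times the highest parental value. Exons of MMP9 share 430 of 2336 bases with SLC12A5-AS1 on the opposite strand. If strand was not counted, reads there could come from either gene. MMP19, an enzyme of basement membrane proteins, had 3.98, 3.32 and 2.98 in resistant libraries, against 0.09, 0.07 and 0.02 in parental ones. It rose 57.1-fold (limma adjusted p = 6.34e-06), a ratio that the 2 decimals of the table place between 52.6 and 62.4. Exons of MMP19 share 814 of 4672 bases with TMEM198B on the opposite strand, with the same limit. MMP11, stromelysin-3, had 2.7, 1.8 and 2.57 in resistant and 1.5, 1.36 and 0.93 in parental libraries and had the smallest log2 fold change of the 28 that rose, 0.57 (SE 0.168, limma adjusted p = 0.0129). With quantile normalization MMP11 was not called (log2 fold change 0.23, limma adjusted p = 0.25, range over the alternatives 0.00921 to 0.25). Exons of MMP11 share 218 bases with CHCHD10 on the opposite strand, a gene that fell to 26.7 ± 1.02 in resistant libraries, against 48.1 ± 9.52 in parental ones (SD, n = 3 each).

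The membrane-type enzymes split. MMP24, a membrane-type MMP best known from neurons, had 90.05, 85.6 and 90.96 in resistant libraries, against 39.31, 37.22 and 32.53 in parental ones, and rose 2.44-fold (log2 fold change 1.27, SE 0.114, limma adjusted p = 4.29e-05). The gene opposite to it, MMP24OS, had 32.69, 38.98 and 42.95 in resistant libraries, against 15.4, 13.11 and 13.91 in parental ones, and rose 2.70-fold. Their exons share 799 of the 4414 exon bases of MMP24, and no source used here says whether strand was counted, so their reads cannot be told apart there and both values are uncertain. MMP15, another membrane-type MMP, went the other way. It had 10.37, 9.83 and 11.78 in resistant libraries, against 24.29, 18.54 and 17.32 in parental ones, and fell by 0.84 on the log2 scale (SE 0.160, limma adjusted p = 0.00162), a ratio of means of 0.532.

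Of the 20 ADAM genes listed 7 were in the table, and of 6 tested 5 rose and 1 fell, and 4 of the 5 could only rise. The shares over all tested genes were 52.5% higher and 45.0% lower. ADAM19, a membrane protease of the meltrin group that sheds neuregulin, had 7.01, 7.86 and 6.99 in resistant libraries, against 0.05, 0.04 and 0.09 in parental ones. Parental values were near 0 in every library, and the 121-fold ratio of means lies between 112 and 133 given the 2 decimals of the table (log2 fold change 2.97, SE 0.119, limma adjusted p = 1.51e-06). ADAM12, the other meltrin in the table, had 1.24, 1.52 and 1.07 in resistant and 0.11, 0.28 and 0.25 in parental libraries and rose 5.98-fold (limma adjusted p = 1.81e-04). ADAM8, a sheddase of leukocytes and tumour cells, had 3.46, 5.94 and 4.09 in resistant libraries, against 2.14, 1.79 and 2.29 in parental ones. Resistant library 2 was the highest by some distance, and ADAM8 rose 2.17-fold (log2 fold change 0.82, SE 0.197, limma adjusted p = 0.00501).

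ADAM28 fell. It encodes a membrane and secreted ADAM of lymphocytes and lung epithelium, and lies on chromosome 8 (24294040 to 24359018 in GRCh38). ADAM28 had 8.14, 6.06 and 7.79 in resistant libraries, against 22.17, 21.25 and 21.38 in parental ones. It fell by 1.45 on the log2 scale (SE 0.140, limma adjusted p = 5.99e-05), a ratio of means of 0.339. ADAM11, which lacks the zinc-binding residues of a protease, averaged 2 ± 0.302 in resistant and 0.353 ± 0.0153 in parental libraries (SD, n = 3 each) and rose 5.66-fold. ADAM21, a gene of the testis, averaged 1.08 ± 0.0551 in resistant and 0.06 ± 0.0458 in parental libraries and rose 17.9-fold, and 30.8-fold without parental library 1. ADAM18, also a testis gene, was not tested. It had 0.2, 0.23 and 1.57 in resistant libraries and was listed at 0 in all parental ones, so its resistant level rested on resistant library 3.

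All 8 ADAMTS genes in the table, of 19 listed, were higher in the resistant line by the authors' call, against 53.9% of all genes in the table. Of 6 tested 6 rose, against 52.5% of all tested genes. ADAMTS6 and ADAMTS15 could only rise, which leaves 4 that could have gone either way. ADAMTS1, ADAMTS9 and ADAMTS15 cut the large proteoglycans versican and aggrecan. ADAMTS9 had 45.41, 45.27 and 44.6 in resistant libraries, against 8.84, 7 and 16.92 in parental ones. Parental library 3 lay 1.01 above libraries 1 and 2 on average, on the scale of log2(value + 1), the largest such gap among the 31 genes. ADAMTS9 rose 4.13-fold with all libraries (log2 fold change 2.04, SE 0.283, limma adjusted p = 3.41e-04) and 5.69-fold without parental library 3. ADAMTS1 had 14.22, 12.91 and 18.33 in resistant libraries, against 1.5, 1.3 and 1.9 in parental ones, and rose 9.67-fold (log2 fold change 2.65, SE 0.180, limma adjusted p = 1.17e-05). ADAMTS15 averaged 2.68 ± 0.206 in resistant and 0.407 ± 0.0929 in parental libraries (SD, n = 3 each) and rose 6.58-fold.

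ADAMTS6 and ADAMTS10 are a related pair that acts on fibrillin microfibrils. ADAMTS10 had 39.89, 39.19 and 35.88 in resistant libraries, against 13.02, 10.66 and 11.7 in parental ones, and rose 3.25-fold (log2 fold change 1.62, SE 0.122, limma adjusted p = 1.85e-05). ADAMTS6 had 5.6, 7.24 and 4.75 in resistant libraries, against 0.5, 0.36 and 0.69 in parental ones, and rose 11.3-fold (log2 fold change 2.17, SE 0.177, limma adjusted p = 2.68e-05). The lines did not overlap in either gene, as in 95.2% of the table's genes, and for ADAMTS6 the filter fixed this in advance. ADAMTS16 had 10.41, 10.78 and 9.67 in resistant libraries, against 5.34, 4.54 and 2.39 in parental ones, with parental library 3 the lowest. It rose 2.52-fold (limma adjusted p = 0.00219), and 2.08-fold without parental library 3. ADAMTS7, which cuts the cartilage protein COMP, and ADAMTS18 were too low to be tested. ADAMTS7 had 0.32, 0.29 and 0.52 in resistant and 0.06, 0.01 and 0 in parental libraries. Its ratio of means was 16.1, and it was 75.3 without parental library 1 and 10.8 when library 3 was left out instead. ADAMTS18 had 0.12, 0.06 and 0.09 in resistant libraries and was listed at 0 in all parental ones.

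The ADAMTS-like proteins share the non-catalytic domains of ADAMTS enzymes, have no protease domain, and several of them bind fibrillin microfibrils. ADAMTSL4 (chromosome 1, 150549369 to 150560937), in which mutations displace the lens of the eye, had 33.98, 29.79 and 32.7 in resistant libraries, against 1.26, 1.97 and 3.68 in parental ones. It rose 14-fold (log2 fold change 3.39, SE 0.262, limma adjusted p = 2.12e-05), and 19.9-fold without parental library 3. Its antisense gene ADAMTSL4-AS1 went the opposite way, with 0.1, 0.29 and 0.05 in resistant libraries and 1.01, 0.91 and 1.27 in parental ones. That gene was too low to be tested, and in the authors' deposited table its log2 fold change was -2.50 with an adjusted p of 0.00276. Its parental mean was 7.25 times its resistant mean, a resistant over parental ratio of 0.138 that was 0.0705 without resistant library 2. The exons of the pair share 736 bases, and without strand their reads cannot be told apart. ADAMTSL1 had 2.34, 2.1 and 2.06 in resistant libraries, against 0.02, 0.02 and 0.01 in parental ones. The parental values were at the table's last decimal, which places the 130-fold ratio anywhere between 99.8 and 186 (log2 fold change 1.64, SE 0.0874, limma adjusted p = 4.49e-06). ADAMTSL3 had 0.96, 0.89 and 0.63 in resistant libraries, against 2.34, 1.86 and 2.28 in parental ones, and fell by 0.79 on the log2 scale (SE 0.129, limma adjusted p = 7.42e-04).

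The 5 single peptidases in the table were higher in the resistant line. MME, CPA4, PAPPA and TLL1 could only rise under the filter, and CPE was the 1 that could have gone either way. MME, neprilysin, a membrane endopeptidase that degrades signalling peptides such as natriuretic peptides (chromosome 3, 155024124 to 155183729), had 28.67, 28.42 and 28.28 in resistant libraries, against 0.14, 0.51 and 0.46 in parental ones. The resistant libraries agreed closely, and MME rose 76.9-fold (log2 fold change 4.44, SE 0.157, limma adjusted p = 1.03e-06). CPA4, a secreted carboxypeptidase of the A type whose promoter holds the AP-1 motif at 2 places (chromosome 7, 130293134 to 130324180), had 22.62, 21.87 and 24.9 in resistant libraries, against 0.18, 0.28 and 0.66 in parental ones. CPA4 rose 62-fold (log2 fold change 4.15, SE 0.173, limma adjusted p = 1.80e-06), and 101-fold without parental library 3. CPE, the carboxypeptidase that trims peptide prohormones, had 27.15, 29.02 and 30.49 in resistant libraries, against 5.26, 6.05 and 4.45 in parental ones, and rose 5.5-fold (log2 fold change 2.26, SE 0.140, limma adjusted p = 7.76e-06).

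PAPPA, a secreted metalloprotease that releases insulin-like growth factor by cutting the binding protein IGFBP4, had 3.99, 3.39 and 3.66 in resistant libraries, against 0.24, 0.01 and 0.06 in parental ones. Parental library 1 was well above the other parental libraries. PAPPA rose 35.6-fold (log2 fold change 2.09, SE 0.125, limma adjusted p = 6.86e-06), and 105-fold without parental library 1. Exons of PAPPA share 2450 of 11573 bases with PAPPA-AS1 on the opposite strand, which had 0.81, 1.36 and 1.78 in resistant and 0.1, 0.01 and 0.06 in parental libraries, so the 2 cannot be told apart where they overlap. TLL1, an astacin protease of the BMP1 group that processes procollagen, had 3.13, 2.29 and 2.73 in resistant libraries, against 0.58, 0.44 and 0.46 in parental ones, and rose 5.51-fold (log2 fold change 1.31, SE 0.126, limma adjusted p = 5.93e-05). CPE and TLL1 lie 375 kb apart on chromosome 4.

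**Figure D2:**
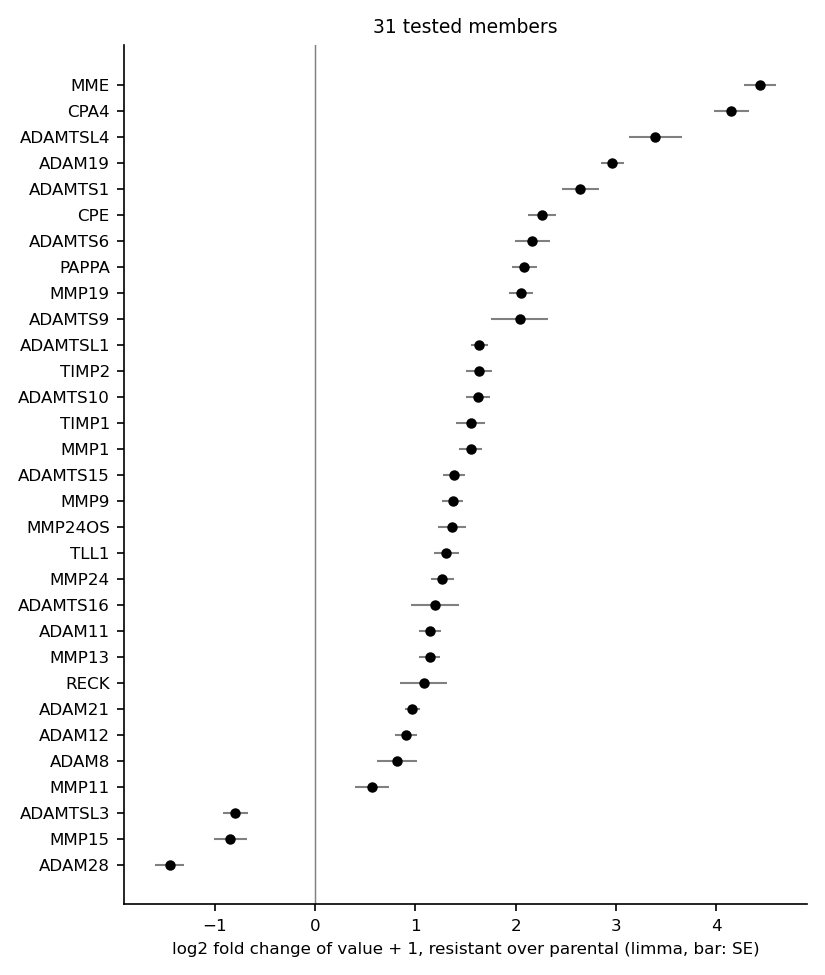
Points give the limma log2 fold change of value + 1, resistant over parental, for the 31 tested genes, with bars of 1 SE. MME at 4.44 and CPA4 at 4.15 lie farthest to the right on this scale, on which the addition of 1 shrinks the change of low genes such as ADAMTSL1 and ADAM19, and ADAM28 at -1.45, MMP15 at -0.84 and ADAMTSL3 at -0.79 lie left of 0.

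**Figure D3:**
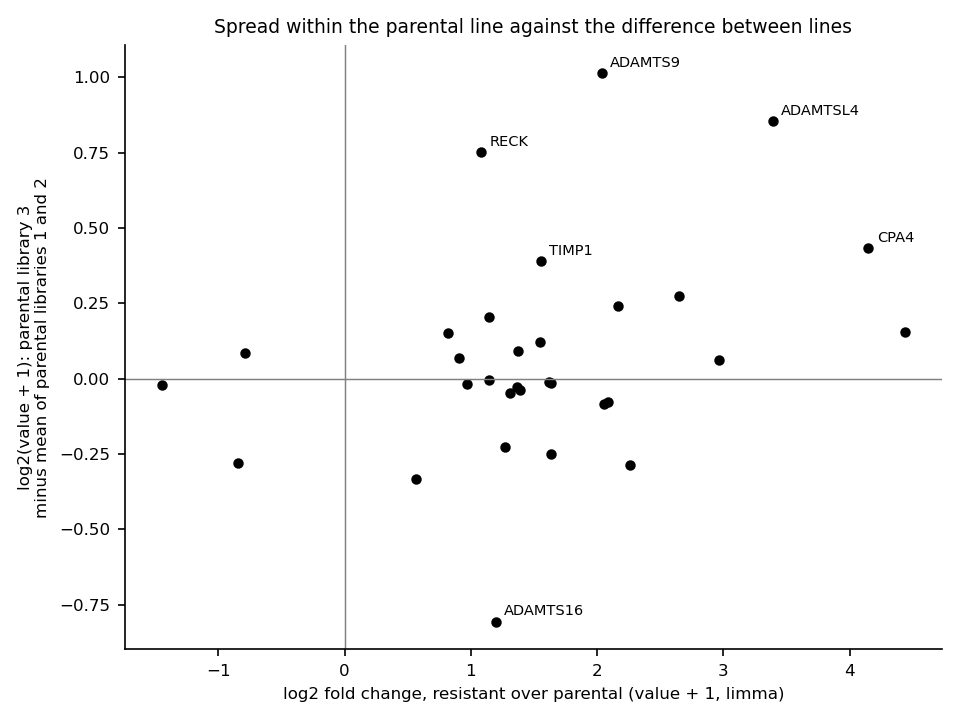
Each point is 1 of the 31 tested genes, with the limma log2 fold change between the lines on the horizontal axis and, on the vertical axis, the log2(value + 1) of parental library 3 minus the mean of parental libraries 1 and 2. ADAMTS9 (1.01), ADAMTSL4 (0.85) and RECK (0.75) were higher in parental library 3, on the side of the resistant values, and ADAMTS16 (-0.81) was lower, away from them.

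Factors that act on MMP promoters gave 7 higher and 8 lower of 15 tested, and the split over all tested genes was 52.5% higher and 45.0% lower (16 of 29 listed genes in the table, median log2 fold change -1.02). RUNX2, a bone and cartilage factor that drives MMP13, rose to 46.7 ± 5.97 in resistant libraries, against 2.51 ± 0.347 in parental ones (SD, n = 3 each, as for all means here), and ZEB2 rose to 21.1 ± 0.778, against 1.19 ± 0.378. The epithelial ETS factor EHF fell to 5.74 ± 0.954 in resistant libraries, against 56.4 ± 18.8 in parental ones. The subunits of AP-1 were looked at after their values were seen, because of the promoter letters above. JUN averaged 103.8 ± 2.62 in resistant and 46.5 ± 1.33 in parental libraries and FOSL2 averaged 132 ± 2.62 in resistant and 27.5 ± 11.9 in parental libraries, both higher. JUNB was lower, at 38.1 ± 2.64 in resistant and 78.4 ± 8 in parental libraries. FOS was also lower, at 0.66 ± 0.236 in resistant and 10.1 ± 9.55 in parental libraries. Parental library 3 had 21.13 and parental libraries 1 and 2 had 5.02 and 4.2. The parental mean of FOS exceeded its resistant mean 15.3-fold with all libraries, and 6.98-fold when parental library 3 was left out.

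Most of the tested proteases that activate MMPs fell. Of 10 listed genes in the table, out of 15, 8 were tested, and 7 fell and 1 rose (median log2 fold change -2.09). The resistant values of 4 of the 7, KLK6 among them, were all below 1, so these could only fall, and of the other 4 tested 3 fell and 1 rose. PLAU, urokinase, which makes plasmin and through it activates several proMMPs, fell to 106 ± 5.81 in resistant libraries, against 681 ± 224 in parental ones (limma adjusted p = 6.15e-05). ST14, matriptase, fell to 0.893 ± 0.385, against 98.6 ± 27.4, and the kallikrein KLK6 fell to 0.03 ± 0.0265, against 10.1 ± 0.586. PLAT, tissue plasminogen activator, was the 1 that rose, to 6.67 ± 0.772 in resistant libraries, against 1.17 ± 0.58 in parental ones (limma adjusted p = 1.33e-04).

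Inhibitors and modulators outside the TIMP family gave 3 higher and 2 lower of 5 tested, a split near that of all tested genes (18 listed, median log2 fold change 1.97). THBS1, thrombospondin 1, rose to 207 ± 8.74 in resistant libraries, against 8.09 ± 0.829 in parental ones, and PCOLCE2, an enhancer of procollagen cleavage by BMP1 and TLL1, rose to 32.6 ± 0.467, against 7.63 ± 1.43. TFPI2, a Kunitz inhibitor of plasmin and MMPs, fell to 30.9 ± 1.44 in resistant libraries, against 200.8 ± 58.7 in parental ones. The other lower gene counted in this list was CST6, a cystatin rather than a metalloprotease inhibitor. It averaged 0.803 ± 0.197 in resistant and 58.0 ± 6.49 in parental libraries. Partners of ADAM17 and ADAM10 gave 2 higher and 2 lower of 4 tested (13 listed, median log2 fold change -0.29). TSPAN15, a tetraspanin that steers ADAM10 to cadherin substrates, fell to 18.4 ± 0.987 in resistant libraries, against 51.8 ± 6.43 in parental ones. ADAM17 and ADAM10 themselves are not analysed here.

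Substrates of these enzymes moved in both directions. Of 45 listed matrix substrates 27 were in the table, and of 21 tested 18 rose and 3 fell (median log2 fold change 1.97). Of these 7, FBN1 among them, could only rise, and of the other 14 tested 11 rose and 3 fell. FBN1, fibrillin 1, the microfibril protein on which ADAMTS6 and ADAMTS10 act, rose to 35.4 ± 0.763 in resistant libraries, against 0.207 ± 0.0551 in parental ones. COL7A1, the collagen of anchoring fibrils, rose to 62.6 ± 1.12, against 2.21 ± 0.168. Of 44 listed transmembrane substrates of ADAMs 22 were in the table, and of 21 tested 9 rose and 12 fell (median log2 fold change -0.99), with 1 that could only rise and 1 that could only fall. AREG, a growth factor released by ADAM17, fell to 16.9 ± 1.55 in resistant libraries, against 142 ± 15.4 in parental ones, and CDH1, a substrate of ADAM10, fell to 44.6 ± 2.19, against 240.1 ± 25.3. AXL, a receptor shed by ADAMs, rose to 54.9 ± 2.35, against 2.56 ± 0.401.

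Of 6 tested insulin-like growth factor genes, the partners of PAPPA, 4 rose and 2 fell (median log2 fold change 1.77). Only 3 of them could have gone either way, and IGFBP4 was not one of these. IGFBP4, the substrate of PAPPA, fell to 0.833 ± 0.126 in resistant libraries, against 4.36 ± 1.02 in parental ones (limma adjusted p = 1.09e-04). IGFBP7 rose to 177 ± 10.1, against 20.7 ± 2.11. Of other extracellular metallopeptidases, 46 being listed and 9 in the table, 1 rose, 4 fell and 1 was not called (median log2 fold change -1.38), and 2 of the 4 could only fall. The neprilysin relative MMEL1 was listed at 0 in all resistant libraries and averaged 3.2 ± 0.62 in parental ones, the direction opposite to that of MME. CPM, a membrane carboxypeptidase, fell to 14.8 ± 2.26 in resistant libraries, against 27 ± 2.08 in parental ones, and the aminopeptidase ANPEP rose to 4.84 ± 0.4, against 1.99 ± 0.77.

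**Figure D4:**
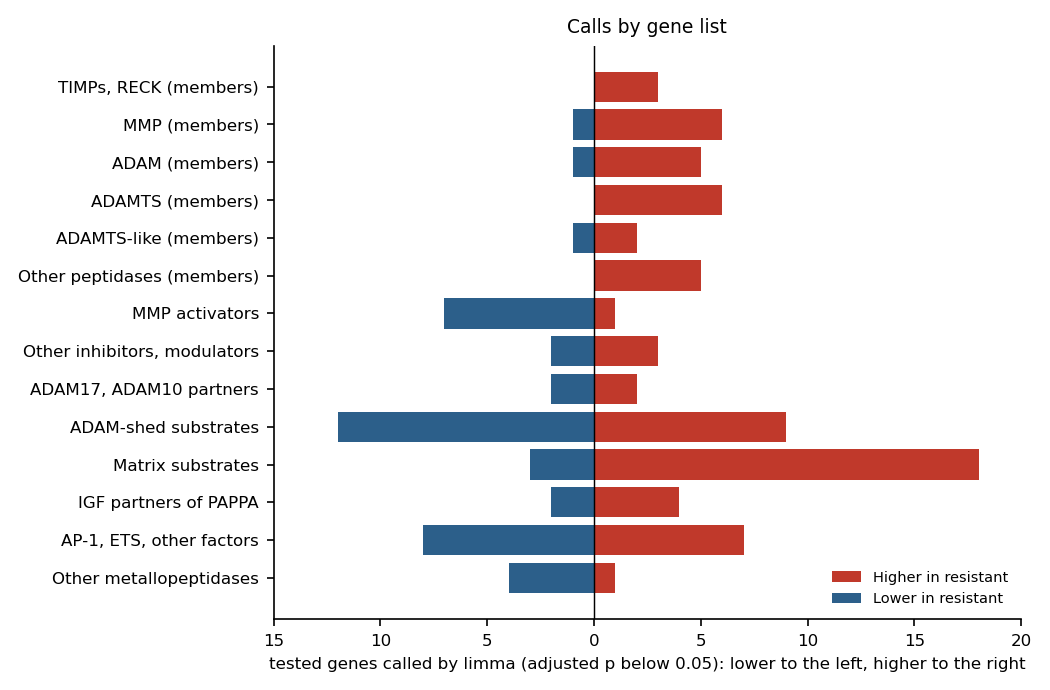
Bars count tested genes called by limma at an adjusted p below 0.05, higher in resistant to the right in red and lower to the left in blue, for the 6 member families (upper rows) and 8 lists of related genes (lower rows). All families but the MMPs, ADAMs and ADAMTS-like genes, which have 1 lower gene each, show only higher genes, while MMP activators show 7 lower and 1 higher. Over all tested genes 52.5% were higher and 45.0% lower. The filter let 4 of 7 MMPs, 4 of 6 ADAMs, 2 of 6 ADAMTS genes and 4 of 5 single peptidases only rise. Of the 3 ADAMTS-like genes 1 could only rise and 1 could only fall, and 4 of the 8 activators could only fall.

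Of the 31 tested genes, 30 kept their call under each of the 13 alternative settings that tested them, MMP11 being the exception, and none turned direction. The filter had fixed the direction of 15 that could only rise and of ADAMTSL3, so keeping it says little there. The runs that left out a library kept the gene set chosen with all 6. All 31 were picked by the authors from these same libraries, so a kept call is not independent evidence. No gene of the authors' deposited table has a log2 fold change between -1 and 1, and the members nearest to that bound were MMP15 at -1.02, ADAMTS16 and MMP11 at 1.04 each and ADAM8 at 1.09. On the scale of log2(value + 1), 6 of the 31 had an absolute log2 fold change under 1. These were ADAM12, ADAM21, ADAM8, MMP11, MMP15 and ADAMTSL3. The labels do not say whether a line's 3 libraries are separate cultures, so p-values reflect only how far these libraries scatter, and that scatter may be technical.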

How the data were processed

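RNA-seq covered 3 HCC827OR and 3 HCC827 libraries, prepared by TruSeq per the labels' protocols. The deposited table gives a normalized expression signal per library, a mean per line, and the authors' fold change (a ratio), log2 fold change, p-value and adjusted p-value, with no named test, unit, normalization or annotation. Signal values are rounded to 2 decimals and give no depth. The submitters' processing notes name Bowtie 0.12.2 and mm8, a mouse build, and the labels' extraction protocol speaks of retinas. Both conflict with the human gene IDs, and no step is taken from them. Every gene listed has an adjusted p under 0.05 and a log2 fold change outside -1 to 1.

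Members and gene lists were chosen with earlier results of these data known. All members are named, those averaging at least 5 in either line are given per library, and from other lists up to 4 genes with the smallest adjusted p and 1 going against the rest could be named. CHCHD10, CEP295NL, PAPPA-AS1, SLC12A5-AS1 and TMEM198B are named because their exons overlap a member's. The fit used limma 3.58.1 in R 4.3.3 on the log2(value + 1) of 3332 genes, with a mean-variance trend. Folds are ratios of line means. Tests were checked on simulated data. With 3 against 3 libraries an exact permutation test cannot go below 0.1, so none is given. Positions came from GENCODE 29 (GRCh38) by gene ID, for 36 of 36 members, promoters from RefSeq, and other steps used Python 3.11.15 and pandas 2.3.3. Protein motifs were not analysed here. Alternatives covered the pseudocount, filter, scaling, variance trend, replicate block, size of change and leaving out each library.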

Additional observations from a re-analysis of the deposited data

How the results depend on the processing

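Counts of members higher and lower were 28 and 3 in the main analysis and stayed at 28 and 3 without any single library. These runs kept the genes chosen with all 6 libraries, and the filter had fixed 15 members to rise and 1 to fall. Over all genes 1749 were higher and 1500 lower, with ranges of 1717 to 1758 and 1439 to 1508 when each library was left out. With a value of 5 required in 3 or more libraries, 16 members were tested, 14 higher and 2 lower. Fewer genes were tested under that filter, and of these 2020 genes 987 were higher and 1012 lower. Requiring a log2 fold change of 1 or more in size left 24 members higher and 1 lower, ADAM28. Over all 3332 tested genes that left 1434 higher and 1110 lower. Without a filter 31 members were higher and 4 lower of 36, and 2310 genes were higher and 1887 lower of all 4439. Quantile normalization gave 27 higher, losing MMP11, and 3 lower, with 1653 higher and 1524 lower over all genes. The median log2 fold change of all tested genes was 0.41 with it and 0.74 in the main analysis. The median of the shifts of single genes was -0.10. The cause of the loss of MMP11 was not tested. The replicate numbers did not pair the libraries. Deviations of same-numbered libraries correlated at 0.03, 0.03 and -0.03, and with the number as a replicate block 28 members were higher and 3 lower, with 1750 and 1508 over all genes. Depth is unknown, and values near the table's last decimal limit the ratios of ADAMTSL1, ADAM19 and MMP19.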

Other observations

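For 5 of the 34 members with a ratio of means, the log2 fold change in the authors' deposited table differed by at least 0.5 from the log2 ratio of the deposited line means, and 14% of 4168 genes of the table did so. PAPPA rose 35.6-fold by the means and 96.6-fold in the authors' deposited table, CPA4 62-fold and 132-fold, and MME 76.9-fold and 119-fold. ADAM11 rose 5.66-fold by the means and 3.02-fold in the authors' deposited table. ADAMTSL3 had a ratio of 0.383 by the means and 0.227 in the authors' deposited table. The direction was the same in all 5.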
